A study of Danio rerio with 12 samples.

Results

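The gene described here is sox9b, one of the zebrafish genes of the SOX family of transcription factors. The gene was chosen with earlier results of these data known. Its members were then taken by annotation, as every probe set that the array's annotation names sox9b. There were 2 of them among 15617 probe sets in the table, the bright Dr.11850.1.S2_at and the dim Dr.11850.1.S1_at. Both point to the same gene, so they are 2 readings of 1 gene and not replicates.

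Vertebrate SOX9 proteins bind DNA through an HMG box. They drive the commitment of mesenchyme to cartilage and switch on genes of the cartilage matrix. Zebrafish carry a pair of genes, sox9a and sox9b, with partly shared roles in the jaw skeleton and fins, and sox9b also acts in neural crest, retina, liver and heart. In zebrafish, sox9b is known from earlier work as a gene that falls after activation of the aryl hydrocarbon receptor (AHR) by dioxin, which is a reason to read it beside cyp1a, the monooxygenase gene induced through that receptor.

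RNA came from pools of about 30 whole wild-type zebrafish larvae frozen at 96 hours post fertilisation (hpf), and was hybridised to 12 Affymetrix arrays. The 4 labelled groups have 3 arrays each and received dimethylsulfoxide (DMSO, 0.1%) as the solvent, 0.1 µM of estradiol (E2), 1 nM of the dioxin TCDD, or E2 with TCDD (E2+TCDD). Chemicals were dissolved in DMSO and were in the medium between 72 and 96 hpf. Each description also carries a W number and a letter, C on replicate 1 of each group and B on the other 8 arrays, and here the letter is inferred to mark the batches of the series text.

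Some facts of the whole series bear on every value. In 6 of the 8 letter B arrays the signals of cyp1a or cyp19a1b, the estrogen-induced brain aromatase gene, went against the title, so each array is called the library labelled so, and none was moved to another group. Arrays that share a number, such as those labelled DMSO 1 and DMSO 2 (both W248), could hold the same RNA, and p-values measure the spread between these arrays, which can be partly technical. The 9 whole-larva tissue markers that were bright enough to test had a signal of at least 1054.4 on every array, and nkx2.5, a heart marker, was below the brightness limit. Values are the deposited MAS5 signal, a linear intensity, and the number of arrays limits the precision.

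The bright probe set showed sox9b at 2 clearly separate levels. Among the libraries labelled DMSO its signal was 778.9 in replicate 1, 847.5 in replicate 2 and 875.7 in replicate 3. In those labelled E2+TCDD it was 288.9, 306.7 and 318.6. These groups did not overlap, and all 3 arrays labelled E2+TCDD lay below all 3 labelled DMSO, as was the case for 5.57% of the 11626 probe sets tested. The libraries labelled E2 had 765.9, 309.2 and 269.9, so replicate 1 was high and the others were low. All 3 still lay below all 3 labelled DMSO, replicate 1 only just, as was the case for 3.92% of probe sets. Those labelled TCDD had 224.2, 862.7 and 829.6, so replicate 1 was the lowest of all arrays and the others were high, overlapping the DMSO group.

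**Figure D1:**
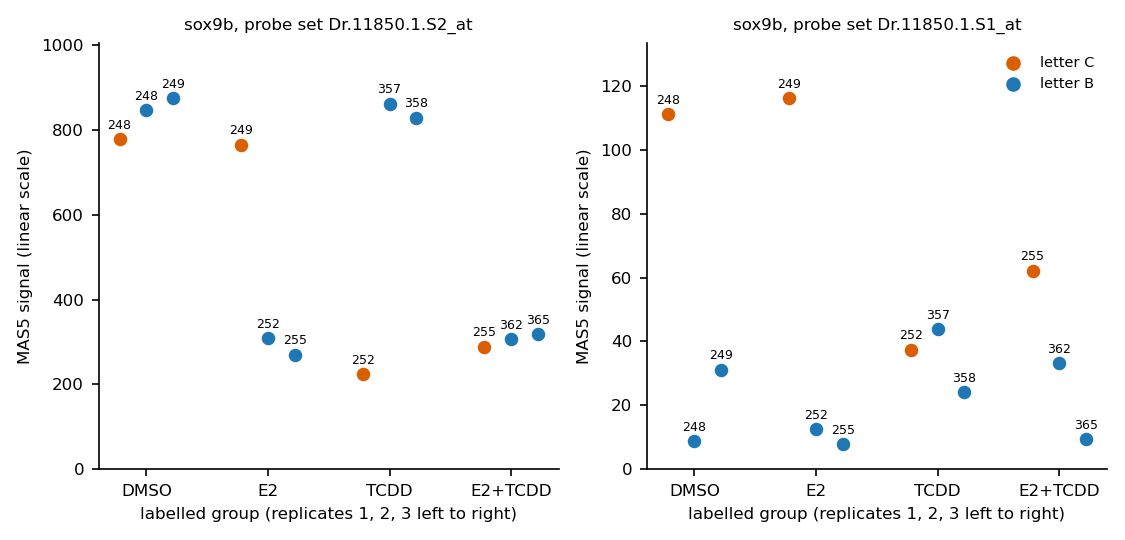
MAS5 signal (linear scale) of the bright sox9b probe set at left and the dim one at right, 1 point per array by labelled group, coloured by letter and marked with the description number. At left the 3 arrays labelled E2+TCDD lie between 288.9 and 318.6 and the 3 labelled DMSO between 778.9 and 875.7, while the E2 and TCDD groups each hold points at both levels.

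Read against cyp1a, the levels of sox9b parted without exception. In the 6 arrays with a cyp1a signal above 5000 the sox9b signal ran from 224.2 (labelled TCDD 1) to 318.6 (labelled E2+TCDD 3). In the 6 arrays with cyp1a below 5000 it ran from 765.9 (labelled E2 1) to 875.7 (labelled DMSO 3). The lowest value of the second set was 2.4 times the highest of the first, and within the sets the highest was 1.42 times and 1.14 times the lowest. Since these sets are defined by a measured gene, the ranges are a description with no test. Of all probe sets tested 0.602% were lower without overlap in the arrays with high cyp1a, and by the size of the gap sox9b ranked 2 among them, after the skin keratin gene krt15. In whole larvae, fewer sox9b-expressing cells and less sox9b RNA per cell cannot be told apart.

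Read against cyp19a1b, no such parting was seen. With cyp1a above 5000, the 3 arrays with high cyp19a1b had sox9b signals of 269.9, 288.9 and 318.6, and the 3 with low cyp19a1b had 224.2, 306.7 and 309.2. With cyp1a below 5000, the 3 with high cyp19a1b had 765.9, 829.6 and 875.7, and the 3 with low cyp19a1b had 778.9, 847.5 and 862.7. In both cases the ranges overlapped.

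**Figure D2:**
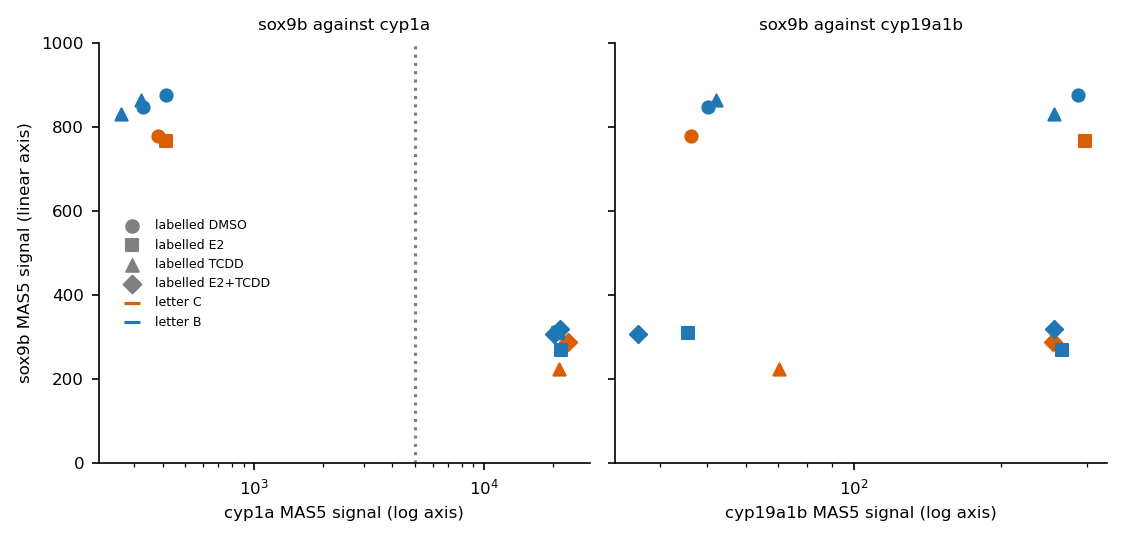
Signal of the bright sox9b probe set (linear axis) against that of cyp1a at left and cyp19a1b at right (log axes), 1 point per array, with shape for the labelled group and colour for the letter; the dotted line is a cyp1a signal of 5000. The 6 arrays right of the line have sox9b signals of at most 318.6 and the 6 left of it at least 765.9, whereas at right both sox9b levels occur at low and at high cyp19a1b.

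In letter B both number series held high and low sox9b. Among those numbered W248 to W255 the letter B signals were 847.5, 875.7, 309.2 and 269.9 in order of number. Among those numbered W357 to W365 they were 862.7, 829.6, 306.7 and 318.6. Each series thus held 2 high and 2 low arrays, with nearly the same values.

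The dim probe set did not part the arrays as the bright one did. Its signal was 111.1 and 116.2 in the letter C libraries labelled DMSO 1 and E2 1, and 37.4 and 62.1 in those labelled TCDD 1 and E2+TCDD 1. In letter B it ran from 7.8 (labelled E2 3) to 43.8 (labelled TCDD 2), and values at both sox9b levels of the bright probe set were mixed there. The share of all probe sets that were dimmer was 3.9% to 34.5% over the 12 arrays, against 51.3% to 83.1% for the bright probe set. Within letter C it was lower in both arrays with high cyp1a, as the bright probe set was, with 1 array per label and no test. Its mean fell below the brightness limit, so it was not tested in the fits below. Without that limit the libraries labelled E2+TCDD and DMSO, 3 each, differed in it by a log2 value of -0.20 (SE 0.34, limma adjusted p = 0.871), an estimate smaller than its error. By description number, a grouping explained below, its differences were -0.53 for W252 against W248 (95% interval -1.27 to 0.22, limma adjusted p = 0.724) and -0.87 for W255 against W249 (-1.62 to -0.13, limma adjusted p = 0.573). All 3 estimates had the sign of the bright probe set and none passed, and they share libraries. Within letter B the direction was not the same throughout. The dim signal there was 8.8 at W248 and 12.4 at W252, but 31.1 at W249 and 7.8 at W255. By label in letter B it was 8.8 and 31.1 for DMSO, and 33.2 and 9.3 for E2+TCDD.

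Between the labels DMSO and E2+TCDD, where the question is the response to the joint exposure, sox9b fell 2.65-fold. This pair was chosen with earlier results known, in which cyp1a went against several titles of the E2 and TCDD groups. Those groups would have widened the spread. Every array labelled DMSO had cyp1a below 5000 and every array labelled E2+TCDD above it, so the p-value below is not independent of that choice. The mean signal was 834.0 ± 49.8 in the libraries labelled DMSO and 304.7 ± 14.9 in those labelled E2+TCDD (SD, n = 3 each). In a limma fit to these 6 libraries the log2 difference was -1.41 (SE 0.09, 95% interval -1.60 to -1.21, adjusted p = 8.94e-06 over all probe sets). It was the third most negative difference of 11626, of which 1.57% were called in either direction and 0.662% lower. Letter C, with 1 array per label, gave -1.38 and letter B gave -1.42, so the fall held within both. The signal of cyp19a1b did not part these groups, so the comparison cannot show what E2 adds. In letter B it also sets W248 and W249 against W362 and W365, and the levels by number series are those given above.

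With all 12 libraries under their labels, sox9b passed no comparison, and the groups ranked as DMSO, TCDD, E2 and E2+TCDD. The mean signal was 638.8 ± 359.5 in the libraries labelled TCDD and 448.3 ± 275.7 in those labelled E2 (SD, n = 3 each), each spread being over 5 times that of the DMSO group. For E2+TCDD against DMSO the difference was again -1.41, but with an SE of 0.41 (limma adjusted p = 0.2). For TCDD against DMSO it was -0.59 (95% interval -1.48 to 0.29, limma adjusted p = 0.683), and for E2 against DMSO -1.02 (-1.91 to -0.14, limma adjusted p = 0.73). For E2+TCDD against TCDD it was -0.81 (limma adjusted p = 0.697), and against E2 -0.38 (limma adjusted p = 0.981). No neighbours in this order were told apart, E2 against TCDD not being tested. In this fit limma called 7 probe sets (0.0602%) for E2+TCDD against DMSO and 0 (0%) in each of the other comparisons. There an unadjusted p under 0.05 was found for 9.58% of probe sets for TCDD against DMSO, 6.62% for E2 against DMSO, 7.11% for E2+TCDD against TCDD and 4.88% against E2. Without the library labelled TCDD 1, E2+TCDD passed against DMSO (-1.41, limma adjusted p = 0.0102) and against TCDD (-1.55, limma adjusted p = 0.0112), and TCDD against DMSO was 0.14. Without that labelled E2 1, E2+TCDD (-1.41, limma adjusted p = 0.0302) and E2 (-1.71, limma adjusted p = 0.0442) passed against DMSO, and E2+TCDD against E2 was 0.30. The comparisons with DMSO share its 3 libraries.

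The wide spread of the E2 and TCDD groups lay between the letters. In letter C the library labelled TCDD 1 differed from DMSO 1 by -1.73 on the log2 scale, while in letter B the libraries labelled TCDD differed from DMSO by -0.03. For the label E2 it was -0.02 within letter C and -1.52 within letter B. Tested as a term for group by letter, the difference labelled TCDD was 1.70 higher in letter B than in letter C (SE 0.17, limma adjusted p = 5.56e-04), and the difference labelled E2 was 1.50 lower, written -1.50 (SE 0.17, limma adjusted p = 0.00173). For E2+TCDD it was -0.03 (95% interval -0.42 to 0.35, limma adjusted p = 0.959). Over all probe sets tested, 2.86% were called for TCDD, 0.327% for E2 and 0.155% for E2+TCDD. The signal of cyp1a moved the other way from sox9b in the same tests, by -6.05 for TCDD and 5.68 for E2.

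The description number gives a second grouping from labels alone, chosen after earlier results were known. The numbers W248, W249, W252 and W255 each occur once with letter C, where the titles are DMSO, E2, TCDD and E2+TCDD in that order, and once with letter B, where they are DMSO, DMSO, E2 and E2. For W248 the sox9b signals were 778.9 (letter C) and 847.5 (letter B). For W249 they were 765.9 and 875.7, for W252 they were 224.2 and 309.2, and for W255 they were 288.9 and 269.9. Arrays of 1 number therefore lay at the same level whatever their titles, and letter B exceeded letter C in 3 of the 4 pairs, by at most 1.38 times. The letter term for sox9b was -0.16 (C minus B, SE 0.10, limma adjusted p = 0.235), whereas 29.6% of all probe sets were called between the letters. For the dim probe set the letter C signal was 3.02 to 12.6 times that of letter B in all 4 pairs.

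Between these numbers sox9b fell in both comparisons that part cyp1a, which were chosen with earlier results known. The arrays at W248 and W249 had cyp1a below 5000 and those at W252 and W255 above it. The p-values here therefore follow the same split by cyp1a that was described above without a test. W252 was lower than W248 by a log2 difference of -1.57 (SE 0.14, n = 2 each, limma adjusted p = 1.06e-05), with 1.66% of probe sets called, 0.378% lower and 1.28% higher. W255 was lower than W249 by -1.50 (SE 0.14, n = 2 each, limma adjusted p = 2.22e-05), with 0.697% called, 0.267% lower and 0.43% higher. The mean signals were 813.2 ± 48.5 for W248, 820.8 ± 77.6 for W249, 266.7 ± 60.1 for W252 and 279.4 ± 13.4 for W255 (SD, n = 2 each). These differences share libraries with the comparison by label and are no separate support for it. Arrays of 1 number may also share RNA.

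Between the numbers that part cyp19a1b, no difference in sox9b was found. It was 0.01 for W249 against W248 (95% interval -0.29 to 0.31, limma adjusted p = 0.999, 0.0172% of probe sets called and 4.05% at an unadjusted p under 0.05) and 0.08 for W255 against W252 (-0.22 to 0.38, limma adjusted p = 0.986, 0.0086% called and 4.83% unadjusted). The difference between the drop from W249 to W255 and that from W248 to W252 was 0.07 (-0.36 to 0.50, limma adjusted p = 0.988), with 0 probe sets called and 5.13% at an unadjusted p under 0.05. The first 2 intervals leave room for changes of up to 0.38 on the log2 scale, and the last for up to 0.50. In the same fit cyp19a1b rose by 2.26 and 1.93 in the first 2 comparisons, which were chosen with its values known.

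**Figure D3:**
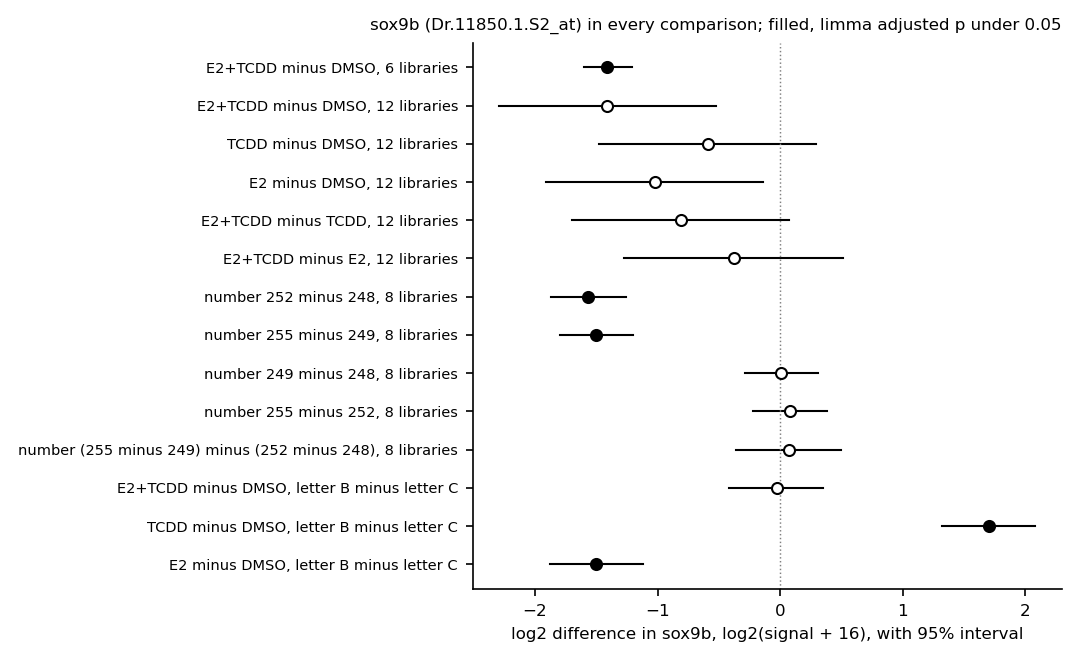
Log2 difference of the bright sox9b probe set in each comparison with its 95% interval; filled points have a limma adjusted p under 0.05. The 6-library comparison (-1.41) and the number comparisons W252 against W248 (-1.57) and W255 against W249 (-1.50) lie far from 0 with short intervals, the 12-library comparisons have long ones, and the label differences change between letters for TCDD (1.70) and E2 (-1.50).

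Among other SOX genes none passed in limma in the 6 libraries or in the comparisons W252 against W248 and W255 against W249. Of 25 other SOX genes on the list, 17 had a probe set and 12 were bright enough to test. A count of 0 of 12 is near the share called over all probe sets, which was 1.57% in the 6 libraries and 1.66% and 0.697% by number, so it says little about the family. The median log2 difference in the 6 libraries was -0.05 against -0.00 over all probe sets tested. The smallest adjusted p belonged to sox11b, a neural SOX gene, at -0.46 for W252 against W248 (SE 0.12, limma adjusted p = 0.0921), beside -0.28 for W255 against W249 and -0.22 in the 6 libraries. In the 6 libraries it belonged to sox19b, an early embryonic SOX gene, at 0.51 (SE 0.14, limma adjusted p = 0.112). The partner of SOX9 in cartilage sox5 differed by 0.18 (SE 0.19), and the neural crest gene sox10 by -0.04 (SE 0.10). For sox6, the other cartilage partner, no probe set is named. The duplicate gene sox9a was too dim to test, with signals of 5.5 to 65.5 over the 12 arrays. Its highest signal was in the library labelled TCDD 1, where sox9b was lowest, and its ranges above and below a cyp1a signal of 5000 overlapped.

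Of the cartilage matrix genes, many of them known targets of SOX9 in vertebrates, some fell in the 6 libraries, each by less than sox9b, and most of those tested did not pass. Of 29 genes, 13 had a probe set and 11 were tested. In the 6 libraries 5 fell, 0 rose and 6 did not pass, with a median log2 difference of -0.29, where 0.662% of all probe sets were called lower. The link protein gene hapln1a, which ties hyaluronan to proteoglycan, fell by 0.82 (SE 0.11, limma adjusted p = 0.00564), and the matrilin gene matn1 fell by 0.57 (limma adjusted p = 0.0135). The chondromodulin gene cnmd fell by 0.44, and the type IX collagen genes col9a2 and col9a3 fell by 0.36 and 0.30. The main cartilage collagen gene col2a1a, a classic SOX9 target in mouse, differed by -0.15 (SE 0.06, limma adjusted p = 0.272), col9a1b by -0.03 (SE 0.07), and the matrilin gene matn4 by 0.18 (SE 0.08, limma adjusted p = 0.338). Leaving out the library labelled DMSO 2 or DMSO 3 lowered the count from 5 to 1, and it was 2 without E2+TCDD 2 or E2+TCDD 3, and 6 without DMSO 1 or E2+TCDD 1. In each number comparison 10 of the 11 did not pass and 1 fell, hapln1a, by 0.95 for W252 against W248 and by 0.84 for W255 against W249. Of all probe sets 0.378% and 0.267% were called lower in these comparisons.

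The signals by array show that hapln1a went with sox9b and matn1 did not. In the libraries labelled TCDD 2 and TCDD 3, where sox9b was high, hapln1a had 993.8 and 1159.4, beside 945.7 to 1073 in the libraries labelled DMSO and 403.9 to 707.1 in those labelled E2+TCDD. In the same 2 arrays matn1 had 5457.1 and 5874.2, within the range of 4222.1 to 6886.5 for E2+TCDD and below that of 7358.6 to 9552 for DMSO. The genes col9a2 (3743.6 and 3727.7) and cnmd (2129.7 and 2182.1) were likewise low there, below the lowest DMSO signal of col9a2 (4514.8) and within the lower part of the range of cnmd (2091.4 to 3162.7). In letter B the labels DMSO and E2 occur only at W248 to W255, and TCDD and E2+TCDD only at W357 to W365. The labelled TCDD exposure and the series therefore cannot be told apart there. Both cyp1a levels occur in each series. In letter B, matn1 ran from 6694.8 to 7630 in the first series and from 4222.1 to 5874.2 in the second. The cnmd signal was 3162.7 and 3049.3 at W248 and W249, 2600.2 and 2667.1 at W252 and W255, and 2013.9 to 2189.9 in the second series. The summed signal of the 11 genes was 51754 to 54019 in the libraries labelled DMSO and 43327 to 46035 in those labelled E2+TCDD, and its part in the sox9b difference was not tested. Of single probe sets 5.57% lay lower without overlap between these labels. The hapln1a probe set is of a kind whose probes can match several transcripts, and that of cnmd is of a kind whose probes can match other sequences.

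Regulators of the jaw and skeleton gave rises and no falls. Of 34 genes, 28 had a probe set, 22 were tested, and 3 rose in the 6 libraries, where 0.912% of all probe sets were called higher. They were edn1, the endothelin that patterns the lower jaw (0.56, SE 0.11, limma adjusted p = 0.0417), prrx1a, a mesenchymal homeobox gene (0.46, SE 0.10, limma adjusted p = 0.0465), and bmp4, a bone morphogenetic protein gene (0.82, SE 0.18, limma adjusted p = 0.0494). All 3 lay near the threshold, and leaving out 1 library at a time left 0 or 1 of the list. In the comparison of W252 with W248 only edn1 passed, at 0.84 (SE 0.15, limma adjusted p = 0.0107), and in that of W255 with W249 the count was 0. Of all probe sets 1.28% and 0.43% were called higher in these comparisons. The signals of edn1 ran from 150.6 to 210.7 in the 6 arrays with high sox9b and from 250.4 to 367.9 in the other 6. This is a description with no test, and the share of all probe sets higher without overlap is not given here. The skeletal transcription factor genes sp7 and runx2b were too dim to test.

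In lists for other tissues that use sox9b, single genes passed. The shares of all probe sets called in the 6 libraries were 0.912% higher and 0.662% lower, and counts of 0 of 9 or 1 of 14 are close to them. Of 6 tested genes of heart valve and epicardium, the transcription factor gene klf2b rose by 0.90 (SE 0.11, limma adjusted p = 0.00212). It also rose by 0.98 and 0.95 in the number comparisons. The other 5 passed in none of these comparisons, among them the related gene klf2a (0.15 in the 6 libraries, SE 0.14, limma adjusted p = 0.691). The valve genes has2 and notch1b and the epicardial genes tbx18 and wt1a were too dim to test. Of 14 genes of Müller and radial glia only the lipoprotein gene apoeb passed in the 6 libraries, at 0.34 (limma adjusted p = 0.0287), and 0 passed without any 1 of the 4 letter B libraries of that fit, while the glial genes gfap (0.22), glula (-0.08) and rlbp1a (-0.37) did not. In the comparison of W252 with W248 the glutamine synthetase gene glulb was the 1 that passed, at 0.38 (limma adjusted p = 0.0408). There 1.28% of all probe sets were called higher. Of 9 tested genes of biliary and pancreatic duct 0 passed in limma in any of these 3 comparisons, and the closest was krt18a.1 at -0.33 (limma adjusted p = 0.0541). The summed signals overlapped between the labels DMSO and E2+TCDD for the glia (41348 to 44040 and 42263 to 43221). They did not for the duct genes (35994 to 41430 and 34605 to 35553), and 5.57% of single probe sets likewise lay lower without overlap. Most of the duct sum came from the keratin genes krt4 (18034.1 to 22523.8 over all arrays) and krt8 (7887.4 to 10486.9). Whether the lower sum reflects duct tissue was not tested. Among the 9 whole-larva markers the liver gene fabp10a fell by 0.85 and the pancreas gene cpa5 by 0.35, a count of 2 that was 1 without the library labelled DMSO 2, DMSO 3 or E2+TCDD 2. By number fabp10a passed for W252 against W248 (-0.71, limma adjusted p = 0.00869) and not for W255 against W249 (-0.41, limma adjusted p = 0.251). In neither did cpa5 pass (limma adjusted p = 0.19 and 0.438). Both had their lowest signal in the library labelled TCDD 3 (1155.4 and 2730.6), where sox9b was high.

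Most tested genes of the list for the AHR response moved opposite to sox9b in the 6 libraries and for W252 against W248. Fewer passed for W255 against W249. Of 6 tested, 5 rose in the 6 libraries, where 0.912% of all probe sets were called higher. The count includes cyp1a, which was used to read the arrays, so its rise of 5.79 is a description. The others were cyp1c1, a related monooxygenase gene (4.69), tiparp, a feedback regulator of the receptor (1.20, SE 0.08), the receptor gene ahr2 (0.62, SE 0.09) and the quinone reductase gene nqo1 (0.35, SE 0.07). The gene arnt2 differed by -0.02 (SE 0.19). In the 6 libraries, leaving out 1 library at a time gave a count of 3 or 4. With cyp1a included, the count was 5 for W252 against W248, where 1.28% of all probe sets were called higher, and 3 for W255 against W249, where 0.43% were. In the latter ahr2 (0.25, limma adjusted p = 0.769) and nqo1 (0.21, limma adjusted p = 0.609) did not pass. The ahr2 signal was 912.1 in the library labelled E2 1, where sox9b was high, and 817.7 in E2+TCDD 1, where it was low.

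**Figure D4:**
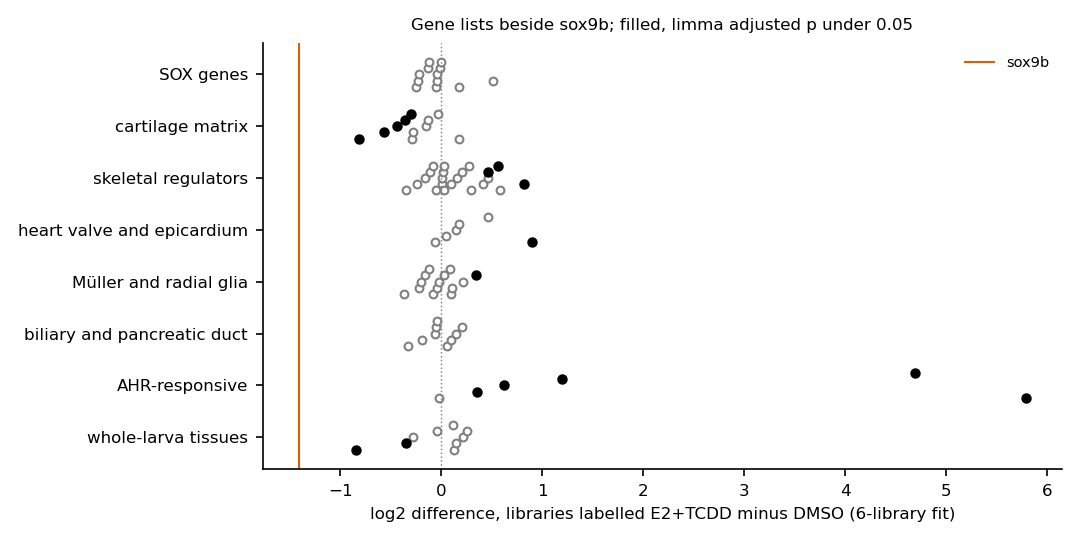
Log2 difference between libraries labelled E2+TCDD and DMSO in the 6-library fit for each tested gene of 8 lists, with filled points for a limma adjusted p under 0.05 and a vertical line for sox9b at -1.41. No list member reaches the sox9b line; the lowest are fabp10a (-0.85) and hapln1a (-0.82), and 0 of 12 other SOX genes are filled.

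The genes most like sox9b over the arrays were found by Pearson correlation on the log2 scale over the 12 arrays, among 1324 named probe sets with a range of at least 1. Because the arrays lie at 2 levels, the correlation mostly measures that split, and it is a description with no p. The highest was krt15, a keratin gene of skin (r = 0.98), followed by spon2b, a secreted matrix protein gene (0.97), and the chemokine gene cxcl12b (0.95). Next were plvapb, an endothelial gene (0.94), the lysyl oxidase gene loxa (0.92), which crosslinks collagen, and krt94, another keratin gene (0.89). The last 4 of the 10 were hapln1a (0.88), arrdc2 (0.86), the phosphate transporter gene slc34a2b (0.86) and the collagen gene col15a1a (0.86).

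The size of the step differed widely among these genes. The signal of krt15 ran from 2347.6 to 2761.4 in the arrays with high sox9b and from 819.7 to 982 in the others, and its difference in the 6 libraries was -1.50. The signal of cxcl12b ran from 578 to 699.7 and from 227.7 to 394.9, with a difference of -0.86. For slc34a2b the ranges nearly met, at 380.6 to 577.4 and 277.7 to 377.1, and for arrdc2 they overlapped, at 658 to 873.9 and 412.6 to 676.3. Of the 10, col15a1a did not pass in the 6 libraries (-0.58, limma adjusted p = 0.0885). In the other direction, tiparp (-0.97) and sult6b1, a sulfotransferase gene (-0.97), cyp1c1 (-0.97) and cyp1a (-0.99) had the lowest correlations, with a probe set annotated to mpx (-0.99) whose identifier shares its cluster number with cyp1a.

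**Figure D5:**
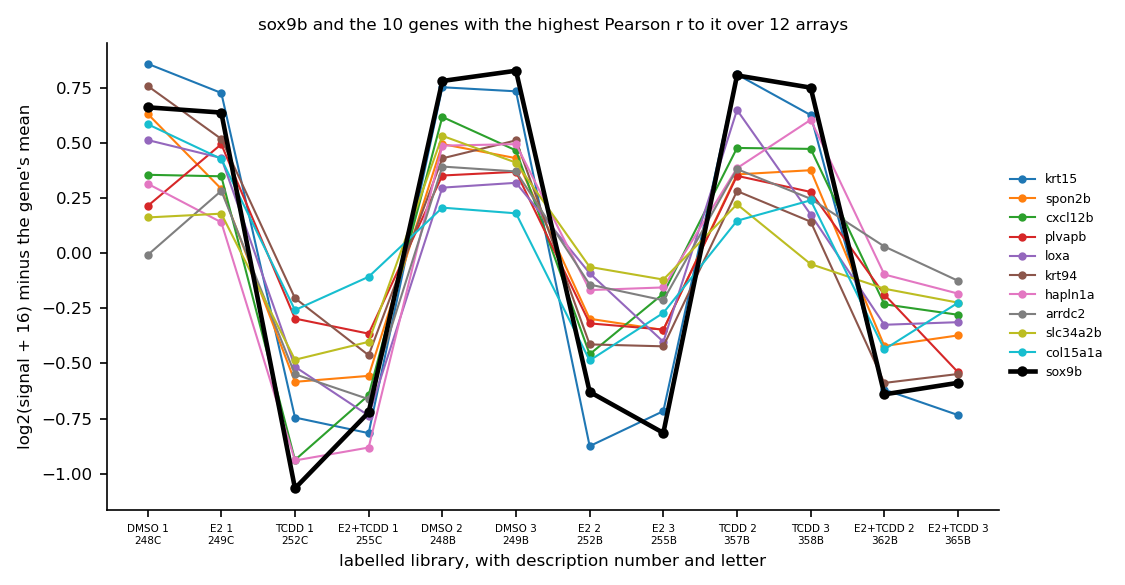
Log2 signal minus each gene's own mean on the 12 arrays, ordered by letter and description number, for sox9b (thick black line) and the 10 genes with the highest Pearson correlation to it. The lines are mostly low in the arrays labelled TCDD 1, E2+TCDD 1, E2 2, E2 3, E2+TCDD 2 and E2+TCDD 3, and the steps of sox9b and krt15 are larger than those of slc34a2b or arrdc2.

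The neighbours of sox9b on its chromosome could be read only in part. In the RefSeq gene table for GRCz12tu, of the 12 genes listed before sox9b and the 1 listed after it, 2 had a named probe set. The gene proza, of the protein Z family, had signals of 874 to 1146.9 and differed by 0.04 in the 6 libraries (SE 0.08, limma adjusted p = 0.867). The 3 probe sets of sox8b, another SOX gene, were too dim to test, with no signal above 62.7. The adjacent gene is slincR, a long noncoding RNA known in zebrafish to be induced through ahr2 and to take part in repression of sox9b, and no probe set is named for it.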

How the data were processed

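Per the submitters' processing notes, the signals deposited by the authors come from Affymetrix Expression Console with the MAS5 method; no version is named there. The authors deposited each value as a linear intensity of a probe set. All arrays had a trimmed mean (2% off each side) within 0.00225% of their median, so no further scaling was applied, and log2(signal + 16) was analysed. From 15617 probe sets the 115 controls were removed, and a brightness limit at the 25th percentile of the mean log2 value left 11626 to test. Symbols came from the platform annotation and were updated by Entrez gene ID; 10795 probe sets had 1 symbol, 135 several and 4572 none.

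Tests used limma 3.58.1 in R 4.3.3: lmFit with group and letter as terms, eBayes with a variance trend, two-sided p-values adjusted by Benjamini-Hochberg over all tested probe sets, and a threshold of 0.05. Tests between letters fitted group by letter. For each listed gene the brightest probe set was taken. On simulated data with 200 changed probe sets, changes of 1 on the log2 scale were found in 90% of cases in the 6-library fit. The share was 90% in the 12-library fit, 79.5% by W number and 33.5% for the letter tests. The simulated noise was the spread within each label and letter. It leaves out the spread between letters in the E2 and TCDD groups. The 12-library share therefore does not hold for genes with that spread, such as sox9b (SE 0.41 in that fit). Alternatives changed the pseudocount (1 or 64), the brightness limit, the normalisation, the block or letter term, the variance model and the libraries included. The members and lists were chosen with earlier results of these data known. Named were both sox9b probe sets, the markers, a set of SOX9-related genes, listed genes past the test, and the 10 and 5 genes with the highest and lowest correlation; other genes were named once their values had been seen. No sequences are shown, as the sources used here hold none for these genes or probe sets. Positions are not shown, as those sources give the arrays no genome build. Only the gene order of GRCz12tu was used, for the neighbours.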

Additional observations from a re-analysis of the deposited data

Results flagged for a closer look

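The difference in sox9b between libraries labelled TCDD and DMSO was 1.70 on the log2 scale higher in letter B than in letter C (SE 0.17, limma adjusted p = 5.56e-04). The difference between libraries labelled E2 and DMSO was lower in letter B, by -1.50 (SE 0.17, limma adjusted p = 0.00173). Both stood out because 1 labelled contrast gave different values in the libraries of the 2 letters. The signal of cyp1a differed between letters in the same contrasts, by -6.05 and 5.68. Letter C has 1 library per label, so the spread behind both tests comes from the letter B pairs.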

How the results depend on the processing

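In the 6 libraries the fall of sox9b kept its direction and its call under all 17 alternatives, from -1.45 to -1.28, and leaving out 1 library gave -1.42 to -1.39; with the dim probe set in its place the value was -0.20 (limma adjusted p = 0.871), and by number it was -0.53 and -0.87 (limma adjusted p = 0.724 and 0.573). The number comparisons also kept both calls under 17 alternatives each, from -1.75 to -1.39 for W252 against W248 and from -1.67 to -1.33 for W255 against W249, the same ranges as when 1 library was left out. The letter tests kept theirs under 16 each, those leaving out a letter B library being added after the data were seen, as was letter B alone in the 6 libraries. With the replicate number as a block in place of the letter, the sox9b value was -1.41 and the call stood in the 6 libraries, while the count of probe sets fell from 183 to 110; it changed no sox9b call in the 12. The replicate numbers were not taken as pairs. All 18 same-numbered pairs correlated over 0.1 before the letter term, and 0 of the 12 of replicates 2 and 3 did after it. Taking off group and letter means itself pulls such correlations below 0, so these values cannot show that pairing is absent.

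In the 12 libraries, E2+TCDD against DMSO passed with array weights (-1.41), with 3 blocks in place of 2 letters (-2.46) and in letter B alone (-1.42). It also passed with only the groups compared (-1.41), which is the 6-library fit again and no further support. With 1 library left out the values were -1.44 to -1.38. Of these it passed without the library labelled E2 1 (limma adjusted p = 0.0302) or TCDD 1 (0.0102). The 3 blocks split letter B by number series, so the labels DMSO and E2+TCDD share a block only in letter C, with 1 array per label. Across letter B that fit joins the labels DMSO and E2+TCDD only through E2 and TCDD, whose differences from DMSO changed between letters. Its value of -2.46 lies beyond the falls within letter C (-1.38) and within letter B (-1.42). How far the joining made the value larger was not tested. E2 against DMSO passed in letter B alone (-1.52) and without E2 1 (-1.71, range -1.71 to -0.70), and E2+TCDD against TCDD in letter B alone (-1.39) and without TCDD 1 (-1.55, range -1.55 to -0.50). Without TCDD 1 the difference of TCDD from DMSO turned to 0.14 (range -0.90 to 0.14), and without E2 1 that of E2+TCDD from E2 turned to 0.30 (range -0.70 to 0.30), as in letter B alone (0.11). None of these 3 values passed. Differences near 0 changed sign for W249 against W248 with quantile normalisation (-0.00), median centring (-0.02) and 1 library left out (-0.02 to 0.04), for W255 against W252 (-0.10 to 0.26) and for the difference of the drops (-0.11 to 0.25), none past the test.

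Counts of probe sets called moved more than sox9b did. The 183 of the 6 libraries ranged from 23 without the letter term to 308 with array weights, the 193 of W252 against W248 from 14 to 193, and the 81 of W255 against W249 from 15 to 122. The 7 of the 12 libraries ranged from 0 to 295. The other 12-library counts of 0 reached 126 for TCDD and 111 for E2 against DMSO, and 132 and 23 for E2+TCDD against TCDD and E2, all in letter B alone. The letter counts ranged from 31 to 368 for TCDD, 11 to 53 for E2 and 0 to 25 for E2+TCDD. Of the 10 genes most like sox9b, 6 were shared with the 10 by Spearman's rho and 8 with those after taking off each letter's mean. Low signal over background limits what sox9a and the dim sox9b probe set can show.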
